A study of Mus musculus with 8 samples.

Results

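The 9 genes described here make up the class I antigen presentation pathway as it was read on arrays of the Nxnl1-/- mouse retina. They are the immunoproteasome subunits Psmb8, Psmb9 and Psmb10, the peptide transporter subunits Tap1 and Tap2, the loading factor Tapbp (tapasin), and the class I chains B2m, H2-D1 and H2-K1. They were chosen by name, and every probe set that the platform annotation gives to any of them was read: 29 probe sets of 9 genes, out of 45037 probe sets and 18193 named genes on the array. Of the 29, 26 carry a member as their only symbol and 3 carry it among several.

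Class I molecules display peptides from inside the cell to CD8+ T cells. The proteasome cuts proteins into peptides. Interferon-induced subunits (Psmb8, Psmb9 and Psmb10) take the place of the constitutive catalytic subunits and alter which peptides are made. The Tap1-Tap2 transporter carries the peptides into the endoplasmic reticulum, tapasin bridges the transporter to empty class I molecules, and a heavy chain such as H2-K1 or H2-D1 pairs with B2m, beta-2 microglobulin, to reach the surface. In the healthy retina, class I expression is low in neurons, and microglia and vessels are among the cells known to carry it.

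The study compared total RNA of retinas freed of the retinal pigment epithelium (RPE). All mice carry the strain label BALB/c AJ and were 40 days old after birth. Arrays were labelled wild type (3), heterozygous for an Nxnl1 null allele (2) or homozygous for it (3). Nxnl1, active in photoreceptors, encodes a factor related to thioredoxin that sustains cones, and how the null allele was made is not given in the sources used here. The design text states 9 samples, and 1 of them was not analysed here. The labels do not tie the arrays to individual animals, so every p-value reflects the scatter among these samples alone, and that scatter may be technical. Values are log2 levels, so a difference of 1 is a 2-fold change.

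On 2 arrays the Nxnl1 level went against the label. The brighter of its probe sets gave 9.22, 8.87 and 8.65 for the wild-type label, 8.65 and 6.75 for heterozygous 1 and 2, and 6.13, 8.76 and 6.13 for homozygous 1, 2 and 3. The array labelled homozygous 2 thus lay with wild type and the array labelled heterozygous 2 lay near the low homozygous arrays. Groups below follow the labels, and the homozygous difference of each gene is also given without these 2 arrays. RNA quality differed as well. Among the control probe sets, the actin reading at the 5' end minus that at the 3' end was lowest on the arrays labelled wild type 1 (-1.81) and homozygous 1 (-1.74), against -1.26 to -0.69 on the others. The 7 rod markers measured, which define the labelled tissue, had a summed level of 86632 to 96074 on the linear scale. No coordinates of probe sets are given because the array table names no build.

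The promoters of the class I chains and of the immunoproteasome subunit Psmb9 are shown because H2-D1, H2-K1 and B2m had similar profiles over the arrays and Psmb9 was the member whose groups separated best. The windows are RefSeq sequence of GRCm38.p6, 250 bases before to 50 after each gene's start, and 8 of the 9 genes have an entry. Tap2 is the exception. The reference is not the labelled strain and class I genes differ between strains, so the letters in these mice may differ. Capitals mark 4 motifs searched on both strands: the interferon regulatory factor core AANNGAAA, the NF-kappaB consensus, the cyclic AMP response element core TGACG, and the CCAAT box.
B2m, chr2:122147437-122147736, + strand: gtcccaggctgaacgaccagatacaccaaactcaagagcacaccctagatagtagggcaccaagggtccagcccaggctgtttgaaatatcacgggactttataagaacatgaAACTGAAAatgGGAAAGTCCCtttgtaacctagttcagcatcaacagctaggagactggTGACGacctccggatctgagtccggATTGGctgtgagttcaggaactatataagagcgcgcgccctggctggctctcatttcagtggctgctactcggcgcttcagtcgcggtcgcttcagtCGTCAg
H2-D1, chr17:35262844-35263143, + strand: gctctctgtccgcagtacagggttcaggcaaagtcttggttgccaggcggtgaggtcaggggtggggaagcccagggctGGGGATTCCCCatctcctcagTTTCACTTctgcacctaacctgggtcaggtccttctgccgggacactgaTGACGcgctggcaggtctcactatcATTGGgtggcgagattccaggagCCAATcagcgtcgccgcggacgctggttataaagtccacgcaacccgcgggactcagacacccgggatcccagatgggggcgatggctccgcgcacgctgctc
H2-K1, chr17:34000298-34000597, - strand: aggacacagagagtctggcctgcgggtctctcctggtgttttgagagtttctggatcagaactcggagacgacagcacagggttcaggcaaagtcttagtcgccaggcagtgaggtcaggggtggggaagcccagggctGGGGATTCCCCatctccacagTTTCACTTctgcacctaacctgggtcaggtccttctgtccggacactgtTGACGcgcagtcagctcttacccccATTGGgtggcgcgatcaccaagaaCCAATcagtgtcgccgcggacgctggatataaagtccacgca
Psmb9, chr17:34187281-34187580, - strand: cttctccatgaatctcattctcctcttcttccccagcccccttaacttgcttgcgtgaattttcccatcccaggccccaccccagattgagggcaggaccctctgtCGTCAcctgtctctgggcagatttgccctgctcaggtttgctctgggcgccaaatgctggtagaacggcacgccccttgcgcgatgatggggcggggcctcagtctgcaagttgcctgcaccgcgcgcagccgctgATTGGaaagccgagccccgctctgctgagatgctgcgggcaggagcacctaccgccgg

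All 4 motifs occurred in the windows of B2m, H2-D1 and H2-K1, and in 30 of the 32851 windows searched (0.0913%). This share is a description and no test was made of it. The windows of H2-D1 and H2-K1 are near copies, so they are not separate cases. Singly they were common: the interferon regulatory factor core was in 23.9% of windows, TGACG in 20.8%, CCAAT in 37.4% and the NF-kappaB consensus in 4.51%. In the 3 chain genes the interferon regulatory factor core and the NF-kappaB match lay close together. Their first bases, counted from the start of the gene, were at -150 and -171 in H2-D1, at -90 and -111 in H2-K1 and at -137 and -126 in B2m. In H2-D1 and H2-K1 the NF-kappaB consensus matched 4 times over the 2 strands at overlapping positions, which is 1 run of letters. The windows of H2-D1 and H2-K1 aligned over 228 positions with 206 identical bases (90.4%). Psmb9 and Tap1 lie head to head, and their windows share 275 bases, with 1 TGACG and 1 CCAAT in each. The Tapbp window held 2 CCAAT boxes, and those of Psmb8 and Psmb10 held none of the 4 motifs. A match is a run of letters, and no binding was measured here.

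Psmb9, Tap1, Psmb8 and Tap2 sit next to each other on chromosome 17 with 0 other protein-coding genes between them. H2-K1 lies on the same chromosome 10 protein-coding genes away from Psmb9, and Tapbp lies a further 6 beyond H2-K1. H2-D1 lies 67 protein-coding genes beyond Tap2. B2m is on chromosome 2. Psmb10 is on chromosome 8, as is Nxnl1, with 307 protein-coding genes between the 2.

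In the comparison of homozygous with wild-type labels no member passed the adjusted threshold. Psmb9 had the clearest separation of the groups, and the class I chains had differences that were nearly as large on some probe sets but varied more between arrays of a group. Each gene is represented by its brightest probe set. The difference was above 0 for 9 of 9 genes, with a median of 0.19 and a range from 0.01 to 0.42, beside a median of 0.02 and 60.5% above 0 over all 18193 genes. By limma's test with Benjamini-Hochberg adjustment over all probe sets, 0 of 26 member probe sets had an adjusted p under 0.05, and the background was 0% of all probe sets. At an unadjusted p under 0.05, 1 of the 9 genes was higher and 0 were lower. Of all genes 0.621% were higher and 0.22% lower at that level, and of all probe sets 0.535% and 0.377%. The panels of the 9 genes by group show these levels.

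**Figure D1:**
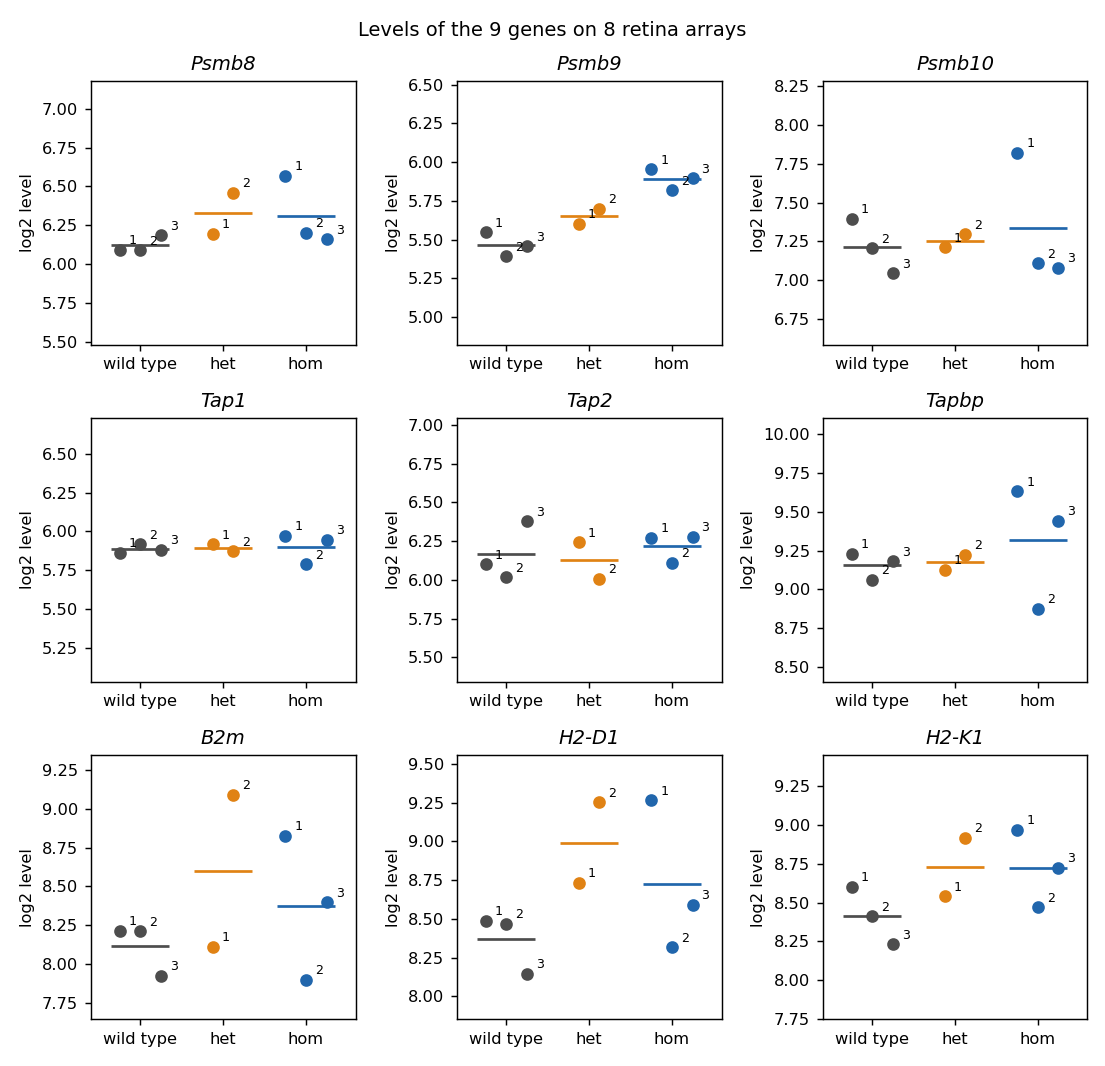
Log2 level of each of the 9 genes (vertical axis) by labelled group (horizontal axis), 1 point per array numbered by replicate, with a line at the group mean; the axes of all panels span the same number of log2 units. Only for Psmb9 do all 3 arrays labelled homozygous lie above all 3 wild-type arrays, and B2m and H2-D1 are highest on heterozygous 2 and homozygous 1.

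Psmb9 encodes the immunoproteasome subunit beta1i. It read 5.55, 5.39 and 5.46 in wild type, 5.60 and 5.70 in heterozygous, and 5.95, 5.82 and 5.90 in homozygous arrays. All 3 homozygous readings lay above all wild-type and heterozygous readings, and both heterozygous readings lay above wild type. Of all genes, 3.25% had every homozygous reading above every wild-type reading. The homozygous mean was 5.89 ± 0.07 (SD, n = 3) and the wild-type mean 5.47 ± 0.08 (SD, n = 3), a log2 difference of 0.42 (SE 0.09), or 1.34-fold. By limma's test the unadjusted p was 0.00139 and the adjusted p 0.9999. Heterozygous minus wild type was 0.18 (SE 0.10, unadjusted limma p 0.102).

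The Psmb9 difference kept its size in each set of arrays tried. Without the arrays labelled heterozygous 2 and homozygous 2 it was 0.46 (SE 0.10, unadjusted limma p 0.00493), and without wild type 1 and homozygous 1 it was 0.43 (unadjusted limma p 0.00525). Leaving out 1 array at a time gave 0.39 to 0.46. Array 2 of the homozygous group, whose Nxnl1 level was like wild type, read 5.82 for Psmb9, above every wild-type array. The gene is read by 1 probe set, so the difference has no second probe set beside it.

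Psmb8 encodes beta5i. Its brighter probe set read 6.09, 6.09 and 6.18 in wild type, 6.20 and 6.46 in heterozygous, and 6.57, 6.20 and 6.16 in homozygous arrays. Array homozygous 1 alone stood out in its group, while homozygous 3 lay within the wild-type range and both heterozygous arrays lay above it. The homozygous difference was 0.19 (SE 0.13, unadjusted limma p 0.192) and 0.058 without homozygous 1. It was 0.24 (SE 0.15) without heterozygous 2 and homozygous 2. The second probe set read 3.11 to 3.58 on all arrays, under the lower quartile of mean levels on the array (4.39), where values are near the floor of the scale.

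Psmb10 encodes beta2i, and it is on the chromosome of Nxnl1. It read 7.40, 7.20 and 7.04 in wild type, 7.21 and 7.30 in heterozygous, and 7.82, 7.11 and 7.08 in homozygous arrays. Array homozygous 1 was above all others, and homozygous 2 and 3 lay within the wild-type range. The difference was 0.12 (SE 0.20, unadjusted limma p 0.555), and without homozygous 1 it was -0.12. Leaving out heterozygous 2 and homozygous 2 gave 0.24 (SE 0.24). Its correlation with Psmb9 over the 8 arrays was 0.40 (exact permutation p 0.350). Across the 8 arrays Psmb10 had a correlation of -0.70 with the actin 5' minus 3' difference, which did not pass adjustment (exact permutation p 0.0406, adjusted over 27 relations 0.183). Without wild type 1 and homozygous 1 it was 0.25 (exact permutation p 0.610). Tapbp had r = -0.67 and Tap1 -0.48 with the same actin difference over the 8 arrays, and the remaining members -0.40 to -0.11. None of these passed adjustment. Without wild type 1 and homozygous 1, Tapbp was at -0.64 and Tap1 at -0.82 (exact permutation p 0.179 and 0.0347), and the remaining members at -0.24 to 0.57. The part of RNA quality in the member levels, the Psmb10 reading of homozygous 1 among them, was not tested.

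Tap1 and Tap2 encode the subunits of the peptide transporter. Tap1 read 5.86, 5.92 and 5.88 in wild type, 5.92 and 5.87 in heterozygous, and 5.97, 5.79 and 5.94 in homozygous arrays. The groups overlapped fully, and the difference was 0.01 (SE 0.09, unadjusted limma p 0.875), or 0.071 (SE 0.10) without heterozygous 2 and homozygous 2. The remaining 3 Tap1 probe sets had differences from -0.06 to -0.03, and 2 of them lay under the lower quartile. Tap2 read 6.10, 6.02 and 6.38 in wild type, 6.25 and 6.01 in heterozygous, and 6.27, 6.11 and 6.28 in homozygous arrays. The highest reading was wild type 3, and the difference was 0.05 (SE 0.12, unadjusted limma p 0.672), or 0.11 (SE 0.14) without heterozygous 2 and homozygous 2. The head-to-head neighbours Psmb9 and Tap1 differed in their profile: their correlation over the 8 arrays was 0.19.

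Tapbp encodes tapasin. Its brighter probe set read 9.23, 9.06 and 9.18 in wild type, 9.12 and 9.22 in heterozygous, and 9.63, 8.87 and 9.44 in homozygous arrays. Arrays homozygous 1 and 3 were the highest and homozygous 2 was the lowest of all 8. The difference was 0.16 (SE 0.18, unadjusted limma p 0.405). Without homozygous 1 it was 0.00031, and without wild type 1 and homozygous 1 it was 0.037. Without heterozygous 2 and homozygous 2 it was 0.38 (SE 0.12, unadjusted limma p 0.0183). The second Tapbp probe set disagreed, with 6.72, 6.93 and 7.66 in wild type, 7.14 and 7.38 in heterozygous, and between 6.998 and 7.13 in the 3 homozygous arrays. Its difference was -0.06 (SE 0.22) with all arrays and -0.11 without those 2 arrays, so the direction for tapasin depended on the probe set.

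B2m encodes beta-2 microglobulin, the light chain of every class I molecule. Its brighter probe set read 8.21, 8.21 and 7.92 in wild type, 8.11 and 9.09 in heterozygous, and 8.83, 7.90 and 8.40 in homozygous arrays. The 3 highest readings were on heterozygous 2, homozygous 1 and homozygous 3, and homozygous 2 was the lowest of all. The homozygous difference was 0.26 (SE 0.29, unadjusted limma p 0.398), the heterozygous one 0.48 (SE 0.32, unadjusted limma p 0.173). The second probe set read 8.28, 7.89 and 7.46 in wild type, 7.62 and 8.89 in heterozygous, and 8.74, 7.57 and 8.27 in homozygous arrays, a homozygous difference of 0.31 (SE 0.39). It too was highest on heterozygous 2 and homozygous 1, but there wild type 1 lay above homozygous 3.

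Single arrays set the size of the B2m difference. Without homozygous 1 the homozygous difference was 0.03, and without homozygous 2 it was 0.50 (SE 0.28, unadjusted limma p 0.124). For the heterozygous label it was -0.0062 without heterozygous 2 and 0.97 without heterozygous 1. Without heterozygous 2 and homozygous 2 together, the homozygous difference was 0.50 (SE 0.17, unadjusted limma p 0.0297).

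H2-D1 encodes a classical class I heavy chain. Its brightest probe set read 8.49, 8.47 and 8.15 in wild type, 8.73 and 9.25 in heterozygous, and 9.26, 8.32 and 8.59 in homozygous arrays. Both heterozygous readings lay above wild type, and homozygous 2 lay within the wild-type range while homozygous 1 and 3 lay above it. The homozygous difference was 0.36 (SE 0.25, unadjusted limma p 0.187) and the heterozygous one 0.62 (SE 0.28, unadjusted limma p 0.0532). Without homozygous 1 the homozygous difference was 0.09, and without heterozygous 2 and homozygous 2 it was 0.56 (SE 0.23, unadjusted limma p 0.0501). Leaving out 1 array at a time gave 0.36 to 0.88 for the heterozygous difference, and the mean of all 9 H2-D1 probe sets gave 0.31.

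H2-K1 encodes the second classical heavy chain read here. Its brightest probe set read 8.60, 8.41 and 8.23 in wild type, 8.54 and 8.92 in heterozygous, and 8.97, 8.47 and 8.72 in homozygous arrays. The 3 highest readings were again on homozygous 1, heterozygous 2 and homozygous 3, and wild type 1 lay above homozygous 2. The homozygous difference was 0.31 (SE 0.17, unadjusted limma p 0.0998) and the heterozygous one 0.32 (SE 0.18, unadjusted limma p 0.124). The homozygous difference was 0.18 without homozygous 1 and 0.43 (SE 0.15, unadjusted limma p 0.0303) without heterozygous 2 and homozygous 2. The heterozygous difference was 0.13 without heterozygous 2 and 0.50 without heterozygous 1. With the actin difference as a covariate the homozygous difference was 0.30 (SE 0.12, unadjusted limma p 0.0365). In the same fit it was 0.25 for B2m (unadjusted limma p 0.333) and 0.35 for H2-D1 (unadjusted limma p 0.0934). That fit had 971 probe sets with an unadjusted limma p under 0.05, against 411 without the covariate.

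The heavy chains are read by 13 probe sets, of which 7 of the 9 for H2-D1 and all 4 for H2-K1 end in _x_at, the suffix for sets with probes that match other transcripts. Class I genes are near copies, so these sets may share signal between H2-D1, H2-K1 and other class I genes, and they are not independent. Of the 11 _x_at sets 10 were above the lower quartile, and their homozygous differences ran from 0.18 to 0.42, and 9 of the 10 had their highest 2 readings on heterozygous 2 and homozygous 1, an order held by 4.02% of all probe sets. By gene, 4 of the 9 members had that order, where the background was 5.33% of genes. That order was singled out after the values were seen, and no test was made of it. The H2-D1 set 1452544_x_at had the upper value, with readings of 8.29, 8.31 and 8.15 in wild type, 8.36 and 8.96 in heterozygous and 9.02, 8.27 and 8.72 in homozygous arrays (SE 0.21, unadjusted limma p 0.0827). The H2-D1 set 1426324_at, which is not of that kind and lay above the lower quartile, read 5.98, 6.21 and 6.22 in wild type, 6.29 and 6.31 in heterozygous and 6.15, 6.15 and 6.37 in homozygous arrays. Its difference was 0.08 (SE 0.11), with the groups overlapping. The low H2-D1 set 1451934_at went the opposite way in the heterozygous comparison, at -0.31 (SE 0.11, unadjusted limma p 0.0207). A set that the annotation gives to both H2-K1 and H2-D1 read 6.50, 6.47 and 6.42 in wild type, 6.62 and 6.89 in heterozygous and 7.03, 6.34 and 6.59 in homozygous arrays. The other sets with several symbols had homozygous differences of -0.0019 and 0.0067.

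**Figure D2:**
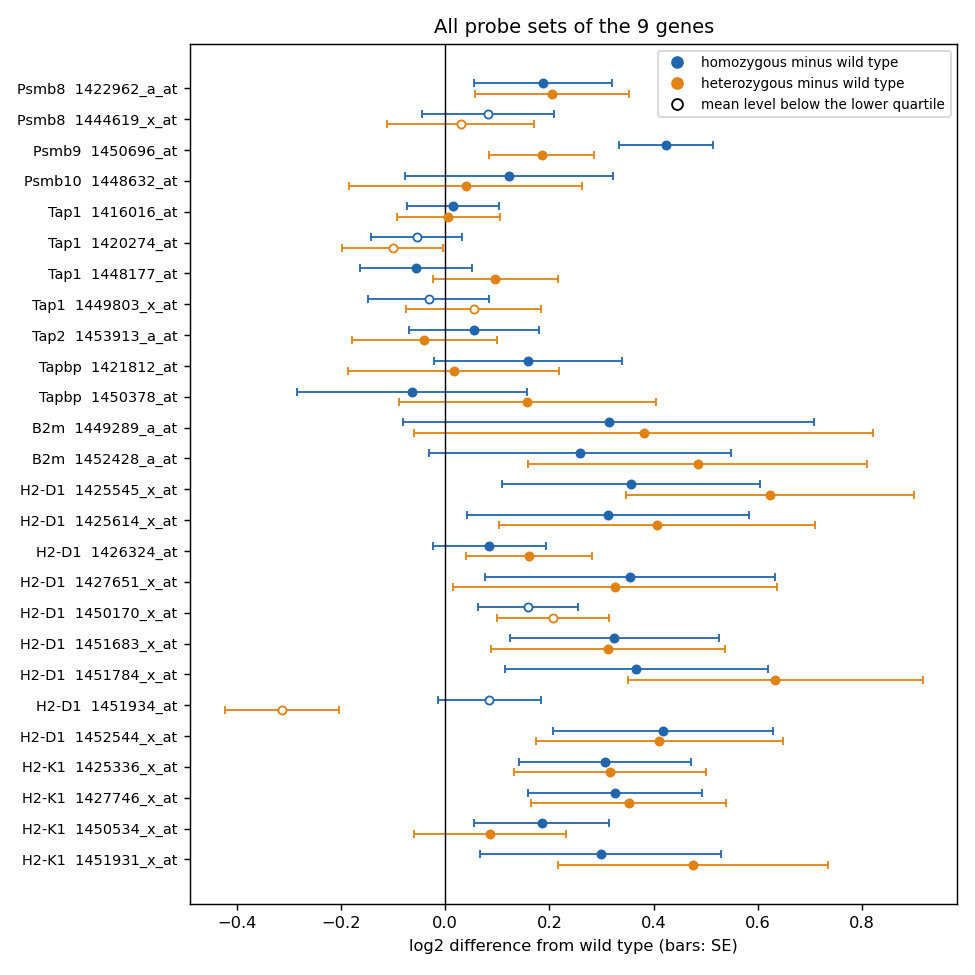
Log2 differences (horizontal axis) of homozygous minus wild type in blue and heterozygous minus wild type in orange for the 26 probe sets with a single member symbol, with bars of 1 SE; open points mark sets whose mean level is under the lower quartile. The homozygous difference is above 0 for 22 of 26 sets, and the Tap1 sets lie around 0.

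Over the 26 probe sets the homozygous difference was above 0 for 22, beside 52.1% of all probe sets. Heterozygous minus wild type was above 0 for 23 of 26, beside 50.6% of all. Every homozygous reading lay above every wild-type reading for 2 of 26, the Psmb9 set and the low H2-D1 set 1450170_x_at, where the background was 2.63%. Every heterozygous reading lay above every wild-type reading for 10 of 26, where the background was 7.03%, and the same held for 3 of 9 genes, where it was 6.95%. Sets for near-identical genes make up most of these, so the count is not a count of genes.

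The 3 highest readings fell on heterozygous 2, homozygous 1 and homozygous 3 for 7 of 26 probe sets and 2 of 9 genes, B2m and H2-K1. Of all probe sets 2.18% and of all genes 3.06% had that order. These are the 3 arrays with the lowest Nxnl1 readings. The order was singled out after the values were seen, and no test was made of it. H2-D1 missed it because heterozygous 1, with a high Nxnl1 level, read 8.73 against 8.59 on homozygous 3. Psmb9 also missed it, because homozygous 2 lay above heterozygous 2.

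With heterozygous 2 and homozygous 2 left out, the homozygous difference was above 0 for 9 of 9 genes with a median of 0.38. Over all genes 63.0% lay above 0, with a median of 0.05. At an unadjusted p under 0.05 by limma, 4 of 9 genes were higher (Psmb9, Tapbp, B2m and H2-K1), where the background was 1.9% of genes, and 10 of 26 probe sets, where it was 1.33%. Adjustment left 0. Heterozygous 2 enters this difference only through the shared estimate of the spread. With homozygous 2 alone left out, B2m was at the same 0.50 but with an unadjusted limma p of 0.124. Psmb9, Tapbp and H2-K1 stayed under 0.05 there. Without wild type 1 and homozygous 1 the median was 0.04 and 6 of 9 genes lay above 0. Over all genes the median was then 0.01 and 55.0% lay above 0. Psmb9 was the 1 gene with an unadjusted limma p under 0.05 there, where the background was 0.753% of genes and 0.926% of probe sets. In that fit B2m was at 0.081 and H2-D1 at 0.15, against 0.26 and 0.36 with all arrays, while H2-K1 was at 0.28 against 0.31. The differences of B2m and H2-D1 therefore depended strongly on which arrays entered. That of H2-K1 depended on them less, and that of Psmb9 moved little. The plot with each array left out shows this gene by gene.

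**Figure D3:**
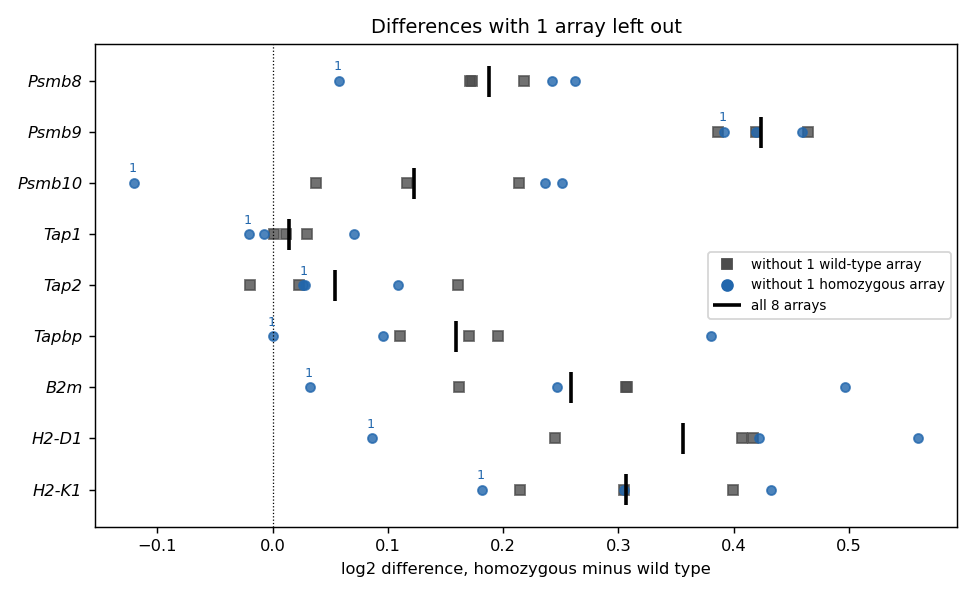
Homozygous minus wild-type log2 difference (horizontal axis) of each gene (vertical axis) with 1 wild-type or homozygous array left out per point, with a line at the value from all 8 arrays squares for wild-type and circles for homozygous arrays, and a numeral over the fit without homozygous 1. Psmb9 stays between 0.39 and 0.46, and B2m runs from 0.03 to 0.50.

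In heterozygous minus wild type, 8 of 9 genes lay above 0 with a median of 0.18, beside 47.6% above 0 and a median of -0.0067 over all genes. At an unadjusted p under 0.05 by limma there were 0 of 9, where the background was 0.451% of genes higher and 0.72% lower. Of the 26 probe sets 0 were higher and 1 was lower at that level, beside 0.511% and 0.635% of all probe sets. Without heterozygous 2 the heterozygous difference was 0.073 for Psmb8 and 0.14 for Psmb9. In homozygous minus heterozygous, 5 of 9 lay above 0 with a median of 0.01, beside 63.7% above 0 and a median of 0.03 over all genes. Psmb9 was higher by 0.24 (SE 0.10, unadjusted limma p 0.0441) in the homozygous arrays, and 0.632% of all genes were higher and 0.176% lower at an unadjusted p under 0.05. Of the 26 probe sets 2 were higher and 0 lower at that level, beside 0.537% and 0.362% of all. The first 2 comparisons share the wild-type arrays. Adjusted p-values stayed above 0.05 for every member in all 3 comparisons by limma.

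The 3 class I chains had closely similar profiles. Of the 36 pairs among the 9 genes, 32 had a correlation above 0 over the 8 arrays, and r ran from -0.29 to 0.93. The pairs that passed adjustment over the 36 were those of the chains. B2m and H2-D1 had r = 0.93 (exact permutation p 0.00258, adjusted 0.031) and Spearman's rho 0.81 (exact permutation p 0.0218, adjusted 0.221). B2m and H2-K1 had r = 0.90 (exact permutation p 0.00203, adjusted 0.031) and rho 0.86 (exact permutation p 0.0107, adjusted 0.193). H2-D1 and H2-K1 had r = 0.93 (exact permutation p 0.00154, adjusted 0.031) and rho 0.90 (exact permutation p 0.00456, adjusted 0.164), but probe sets of these 2 genes may share signal. B2m lies on another chromosome and is not a near copy of the heavy chains. Without heterozygous 2 and homozygous 1, the arrays farthest from the median, r was 0.67 (exact permutation p 0.136), 0.76 (exact permutation p 0.0667) and 0.76 (exact permutation p 0.0806) in the same order. The correlations stayed above 0 on the remaining 6 arrays, and none had a p under 0.05 there.

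**Figure D4:**
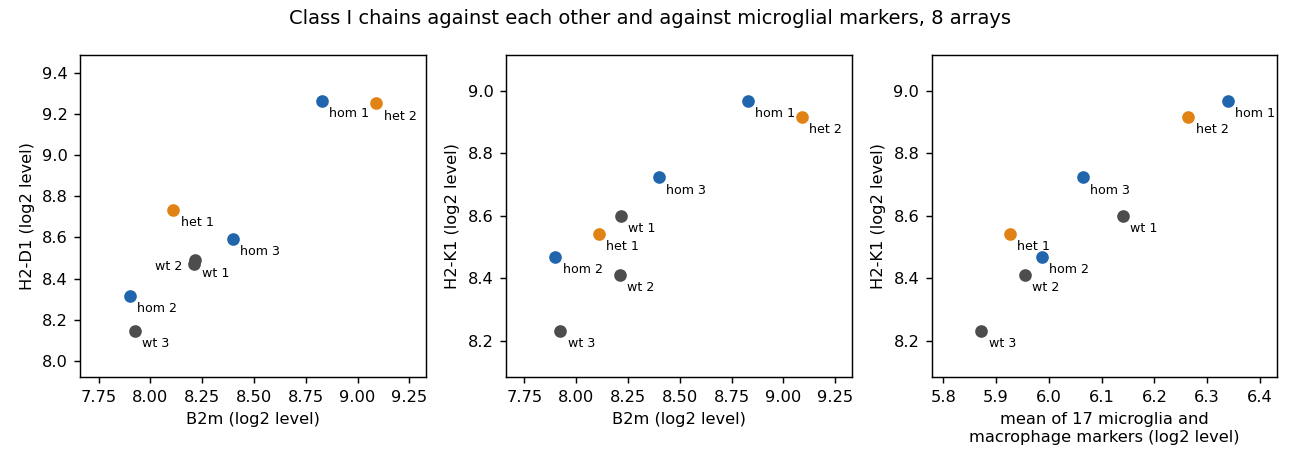
Log2 levels over the 8 arrays, labelled by group and replicate: B2m against H2-D1, B2m against H2-K1, and the mean of 17 microglia and macrophage markers against H2-K1. Heterozygous 2 and homozygous 1 lie at the upper right of each panel.

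Markers of microglia and macrophages had a profile like that of the chains. Their mean log2 level over 17 measured markers was 6.14, 5.95 and 5.87 in wild type, 5.93 and 6.26 in heterozygous, and 6.34, 5.99 and 6.06 in homozygous arrays. It was highest on homozygous 1 and heterozygous 2, followed by wild type 1. The mean had r = 0.93 with H2-K1 (exact permutation p 0.000893, adjusted over 27 relations 0.0241; rho 0.90, adjusted 0.123). Without homozygous 1 and heterozygous 2, r was 0.78 (exact permutation p 0.0708). The likeness was not limited to the chains. With B2m r was 0.88, with H2-D1 0.85 and with Psmb10 0.81 (each adjusted 0.0656 by exact permutation). It was 0.78 with Psmb8, 0.66 with Tapbp and 0.60 with Psmb9 (adjusted 0.150, 0.211 and 0.262 by exact permutation). The transporter genes did not share it, with r of 0.29 for Tap1 and -0.24 for Tap2 (adjusted 0.637 and 0.646 by exact permutation). Without those 2 arrays r was 0.60 with B2m, 0.34 with H2-D1, 0.62 with Psmb10, -0.52 with Psmb8 and 0.38 with Psmb9. It was then 0.39 with Tapbp, -0.057 with Tap1 and -0.40 with Tap2. Homozygous minus wild type was above 0 for 15 of 17 markers with a median of 0.13, beside 60.5% of all genes. Without heterozygous 2 and homozygous 2 it was above 0 for 14 of 17 with a median of 0.16, beside 63.0% of all genes. The summed level on the linear scale was 1566 to 2152 in wild type, 1634 to 2321 in heterozygous and 1762 to 2484 in homozygous arrays. Aif1, Itgam and Ptprc, 3 of the defining markers, lay under the lower quartile. The part of these cells in the class I levels was not tested, and in bulk tissue the number of cells of a type and the RNA per cell cannot be told apart.

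Markers of other cell types were read in the same way. Of 12 endothelial markers 10 were above 0 in homozygous minus wild type with a median of 0.11, beside 60.5% of all genes above 0. Their summed level was 1962 to 2007 in wild type, 2034 to 2289 in heterozygous and 1835 to 2566 in homozygous arrays. Their mean log2 level had r = 0.71 with Psmb10, 0.69 with Psmb8, 0.61 with Psmb9 and 0.30 to 0.56 with the other members. None passed adjustment (lowest adjusted p 0.207 by exact permutation). Without homozygous 1 and heterozygous 1, r was -0.64 with Psmb10, 0.21 with Psmb8, 0.70 with Psmb9 and -0.42 to 0.12 with the other members. T and NK cell markers gave 5 of 10 above 0, with summed levels of 355 to 377, 357 to 371 and 349 to 412, and 4 of the 10 lay under the lower quartile. B cell markers gave 1 of 4 above 0 with sums of 103 to 111, 97.1 to 110 and 101 to 110. Pigment epithelium and choroid markers lay lower, although the RPE had been removed: 1 of 9 was above 0 against wild type for each of the other labels. Of all genes 60.5% lay above 0 for the homozygous and 47.6% for the heterozygous label. The median of these markers was -0.12 in homozygous and -0.55 in heterozygous arrays. In the heterozygous comparison 4 of 9 were lower at an unadjusted p under 0.05 by limma, beside 0.72% of all genes. Their sums were 8255 to 12964, 6795 to 7200 and 6289 to 11001. Of the Muller glia markers 3 of 7, and of the blood markers 1 of 3, were above 0 in homozygous minus wild type. Lens markers gave 9 of 11 above 0 in that comparison with a median of 0.60, and their sums were 503 to 3996, 532 to 4115 and 448 to 10265. The lens crystallin Cryaa read 9.34, 7.09 and 5.77 in wild type, 6.12 and 10.44 in heterozygous, and 11.72, 5.45 and 10.28 in homozygous arrays, and 2 of the 11 lens markers, Cryaa among them, had their 3 highest readings on heterozygous 2, homozygous 1 and homozygous 3. The mean of the lens markers was higher on wild type 1 (7.68) than on heterozygous 2 (7.18) and homozygous 3 (6.91). The part of pigment epithelium or lens RNA in the class I levels was not tested.

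The other genes of the pathway gave a mixed picture. The constitutive catalytic subunits Psmb5, Psmb6 and Psmb7, whose places the immunoproteasome subunits take, were above 0 in 3 of 3 with a median of 0.01, and Psmb7 was at 0.09 (SE 0.11). Of the other 20S core subunits 6 of 11 lay above 0 with a median of 0.01. Of the proteasome activators and assembly factors 5 of 8 measured lay above 0, median 0.02, led by the interferon-induced regulator Psme1 at 0.25 (SE 0.16, unadjusted limma p 0.152). Of the 6 peptide trimming and loading helpers 2 lay above 0 with a median of -0.05, and Erap1, which trims peptides in the endoplasmic reticulum, was at -0.16 (SE 0.23). None of the genes in these 4 lists had an unadjusted p under 0.05 in this comparison by limma. Of all genes only 0.621% were higher and 0.22% lower at that level, so the absence of calls does not set these lists apart. The median of the core subunits shared by all proteasomes lay near the all-gene median of 0.02.

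Among other class I and class I-like genes 7 of 11 measured lay above 0 with a median of 0.05. Cd1d1, which presents lipids, was at 0.25 (SE 0.11, unadjusted limma p 0.0485), and the IgG receptor chain Fcgrt was at 0.18 (SE 0.10). Of the class II genes 7 of 10 lay above 0, median 0.03, led by the transactivator Ciita at 0.25 (SE 0.14), while the class II chains H2-Aa, H2-Ab1, H2-Ea and H2-Eb1 lay between -0.014 and 0.04. Of 23 regulators of class I genes 15 lay above 0 with a median of 0.04. Irf8, an interferon regulatory factor of microglia and other myeloid cells, was at 0.34 (SE 0.17, unadjusted limma p 0.0738), and Irf1 was at -0.03 (SE 0.10). Rfx5, a promoter-binding factor of class I and II genes, was at -0.16 (SE 0.11).

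Other interferon-induced genes were the list whose median lay farthest from that of all genes among these 8 pathway lists. Of 22 measured, 19 lay above 0 with a median of 0.15, and 19 of 22 did so in heterozygous minus wild type. Of all genes 60.5% and 47.6% lay above 0 in the same 2 comparisons. At an unadjusted p under 0.05 by limma, 2 of the 22 were higher in homozygous minus wild type, beside 0.621% of all genes. Irf7 read higher by 0.26 (SE 0.10, unadjusted limma p 0.038), and Bst2, a surface protein that tethers budding virus, by 0.37 (SE 0.16, unadjusted limma p 0.0499). The GTPase Igtp was at 0.28 (SE 0.13, unadjusted limma p 0.063), whereas Mx1, another interferon-induced GTPase, was at -0.18 (SE 0.08, unadjusted limma p 0.0632). No gene of any of the lists passed adjustment. Without heterozygous 2 and homozygous 2, 20 of 22 lay above 0, beside 63.0% of all genes, and the median was 0.22. The median of the other pathway lists then ran from -0.0091 to 0.08, with that of the trimming and loading helpers at 0.05 (5 of 6 above 0) and that of the other class I genes at -0.0091 (5 of 11), both of the opposite sign to the value from all arrays.

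**Figure D5:**
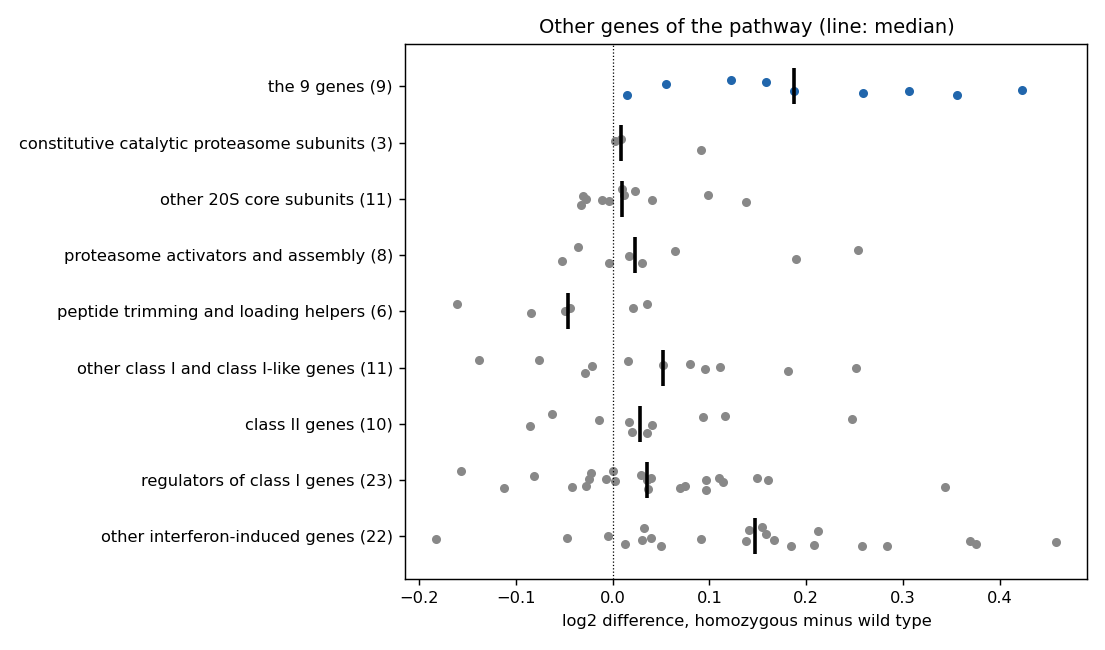
Homozygous minus wild-type log2 difference (horizontal axis) of each gene in the 9 class I and immunoproteasome genes and 8 pathway lists (vertical axis, with the number of genes), with a line at each median. The 9 genes have a median of 0.19, the interferon-induced genes 0.15, and the 20S core and catalytic subunits lie at 0.01.

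The genes most like the pathway over the arrays were named by their correlation with the mean of the 9 members, each centred on its own mean, among 12731 genes that vary enough to be ranked (SD over the 8 arrays of at least 0.1). That mean was -0.06, -0.14 and -0.18 in wild type, -0.04 and 0.19 in heterozygous, and 0.36, -0.17 and 0.05 in homozygous arrays, so homozygous 1 and heterozygous 2 were highest and homozygous 2 lay among wild type. Cux2 had r = 0.98, Irf8 0.98, Wars2 0.97, Adssl1 0.97 and Zfp469 0.97 over the 8 arrays. These values are a description, since the genes were picked as the highest of those ranked. Irf8 was also on the fixed list of regulators. It read 4.93, 4.78 and 4.70 in wild type, 5.04 and 5.22 in heterozygous, and 5.49, 4.80 and 5.15 in homozygous arrays.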

How the data were processed

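Total RNA of 8 retina samples was hybridised as biotinylated cRNA to Affymetrix 3' expression arrays, 1 array per sample. The deposited table holds log2 expression values that the authors made with RMA, per the submitters' processing notes. No RMA version is given in the sources used here. RMA makes the arrays' distributions alike, so each difference is relative to the bulk of transcripts. Values ran from 2.50 to 14.57 and the medians of the arrays from 6.11 to 6.21. Precision is limited by how few arrays there are.

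The table had 45101 probe sets, of which 64 controls were left out. By the platform annotation 34945 of the rest had 1 gene symbol, 932 several and 9160 none, and symbols were updated through gene identifiers for 34741. The probe set with the highest mean stood for its gene. Group means of all 8 arrays were fitted with limma 3.58.1 (lmFit, eBayes, two-sided) in R 4.3.3, with 5 residual degrees of freedom and Benjamini-Hochberg adjustment over 45037 probe sets at 0.05. Correlations used exact permutation tests (SciPy 1.17.1) over 36 pairs of members and 27 relations with the actin difference or the mean of the microglia or endothelial markers.

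The members, gene lists and tests were chosen with earlier results of these data known. All 9 members were named, with up to 4 genes per list by smallest unadjusted p and the 5 genes most like the members. Irf1, the class II chains, Cryaa, the marker genes named as low and the single probe sets fall outside this rule and were chosen after their values were seen. Promoters are RefSeq sequences of GRCm38.p6. Alternatives were a repeated quantile normalization, equal medians, filters, variance models, array weights, the replicate number as a block, each array left out and the mean of all probe sets. Added after seeing the data were fits without heterozygous 2 and homozygous 2, without wild type 1 and homozygous 1, and with that actin difference as covariate. The fit was tested on simulated data.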

Additional observations from a re-analysis of the deposited data

How the results depend on the processing

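By limma, 0 probe sets passed adjustment in each comparison, where 411, 516 and 405 had an unadjusted p under 0.05 for the homozygous and the heterozygous label against wild type and for homozygous against heterozygous. An ordinary test without moderation gave 819, 936 and 858 at that level. Leaving out 1 wild-type or homozygous array gave 0 to 1 adjusted calls. The 1 call, without wild type 3, was a probe set with no symbol, 1426438_at. It was called against wild type for both other labels. Its log2 difference in that fit was large, 6.29 for homozygous and 6.44 for heterozygous minus wild type. The cause of that difference, and its bearing on the comparisons with wild type, was not tested. Correlations of deviations from the group means between same-numbered arrays ran from -0.25 to 0.62, the highest being that of wild type 1 with homozygous 1. Homozygous 2 correlated best with wild type 3 (0.52). Deviations within a group offset each other, and those of the heterozygous arrays are mirror images. These correlations therefore cannot decide whether the replicate numbers pair the samples. With the replicate number as a block, 0 probe sets passed in each comparison, and Psmb9 was at 0.42 (SE 0.10, unadjusted limma p 0.00506). Array weights brought Psmb9 to 0.48 (unadjusted limma p 4.05e-05, adjusted 0.284), the lowest adjusted p of any alternative for that gene. With these weights 5673 probe sets had an unadjusted limma p under 0.05 for homozygous minus wild type, against 411 without them. Wild type 2 had a weight of 5.96 and homozygous 3 of 2.82, and the other arrays of these groups 0.34 to 0.52. That p-value therefore leans on 2 arrays. Psmb8, Psmb9, H2-D1 and H2-K1 kept their direction against wild type in every alternative, as did Tapbp and B2m for homozygous minus wild type.

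These differences reversed. For homozygous minus wild type, Psmb10 was at -0.051 with array weights and -0.029 without wild type 1 and homozygous 1, Tap1 at -0.033 without those arrays and -0.032 as the mean of its probe sets, and Tap2 at -0.0035 without those arrays. With 1 array left out, Psmb10 ran from -0.12 to 0.25, Tap1 from -0.020 to 0.071 and Tap2 from -0.020 to 0.16. For heterozygous minus wild type, Psmb10 was at -0.068 with the block. Without heterozygous 2 and homozygous 2, Psmb10 was at -0.0025, Tapbp at -0.032, B2m at -0.0062 and Tap2 at 0.079. Tap1 was at -0.018 with the repeated quantile normalization, -0.027 with equal medians, -0.018 with array weights and -0.0068 without wild type 1 and homozygous 1. Tap2 was at 0.076 with array weights and 0.027 with the block, and Tapbp at -0.017 with equal medians. With 1 array left out, Psmb10 ran from -0.046 to 0.13, Tap1 from -0.016 to 0.028, Tap2 from -0.16 to 0.079, Tapbp from -0.032 to 0.064 and B2m from -0.0062 to 0.97. A group left with 1 array was assumed to vary like the others. The cause of these reversals was not tested.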
